A study of Mus musculus with 4 samples.

Results

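B cells of the lung were examined in TNF+ mice, which carry 1 copy of a human TNF transgene, and in TNF- littermates without it. The B cells were chosen by their own counts of unique molecular identifiers (UMIs, 1 per captured RNA molecule). A cell needed at least 3 UMIs of Cd79a and Cd79b together and at least 1 of Ms4a1. It also needed no UMI of Cd3e, Cd3d, Cd3g, Csf1r or Cdh5, and fewer than 5 of Mzb1. Among cells with at least 500 UMIs and at most 20% mitochondrial UMIs, the rule took 947 of 8342 cells in the TNF- lung and 778 of 11085 in the TNF+ lung. These 1725 cells came from 19427 lung cells and from 29563 cells in all 4 libraries of lung and synovium. All mice were females of 4 months on the C57BL/6 background. Lungs of 3 to 5 mice per genotype were pooled, digested, cleared of red blood cells and sorted for viability only. Each genotype was therefore 1 library, and no difference below has a replicate check. The transgenic mice develop erosive arthritis and pulmonary hypertension. The human transgene is not part of the mouse reference, and whether its reads reach mouse Tnf was not tested.

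B cells carry an antigen receptor made of an immunoglobulin and the signalling chains Cd79a and Cd79b. A coreceptor that includes Cd81 and the complement receptor Cr2 lowers the amount of antigen that the receptor needs. Naive follicular B cells make IgM and IgD and recirculate with the help of homing receptors such as Ccr7, and they carry Fcer2a (CD23). In chronically inflamed lungs B cells can gather in follicles next to vessels and airways, drawn by the chemokine Cxcl13. Plasma cells, which secrete antibody and hold much Mzb1 and Jchain, were kept out by the rule.

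The label held against the genes that the rule did not use. Pax5, the factor that maintains B cell identity, lay at 1187 counts per 1000000 UMIs (CPM) of the summed B cells in the TNF- library and at 927 CPM in the TNF+ library. Ighm, the IgM heavy chain, had a UMI in 942 of 947 TNF- cells and in 767 of 778 TNF+ cells. Ighd, the IgD heavy chain, had one in 909 and 731 cells. Of the marker genes given for these cells, Cr2 had a UMI in 453 TNF- and 477 TNF+ cells and Fcer2a in 699 and 560. Both were close to 0 in T cells of the same lungs, with 6 and 14 UMIs of Cr2 over 713 and 901 T cells. The T cells were gated on at least 2 Cd3 UMIs and none of Cd79a, Cd79b, Ms4a1, Csf1r or Cdh5. T cell markers never passed 0.140% of the UMIs of any B cell.

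B cell depth was alike in both libraries. The median was 7289 UMIs and 2600 genes per TNF- cell and 7535.5 UMIs and 2602.5 genes per TNF+ cell. Mitochondrial genes took a median of 3.19% and 3.74% of UMIs. The sums over B cells held 7491774 and 6206972 UMIs. The lung libraries shared 21 cell barcodes, 1 of them a TNF- B cell, and no barcode was a B cell in both. All intervals below are 95% intervals of counting error only, and differences between mice or between library preparations are not in them.

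B cells made up a smaller share of the TNF+ lung suspension. The share was 11.4% in the TNF- library (exact binomial interval 10.7 to 12.1) and 7.02% in the TNF+ library (6.55 to 7.51), a difference of -4.33 percentage points (Newcombe interval -5.17 to -3.51). T cells were 8.55% and 8.13% of the same cells. Among B and T cells together, B cells were 57.0% (54.6 to 59.4) and 46.3% (43.9 to 48.8). Shares of 1 suspension depend on every other cell type in it: the endothelial gate (Cdh5) held 1866 TNF- and 114 TNF+ cells and the myeloid gate (Csf1r) 600 and 3133.

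**Figure D1:**
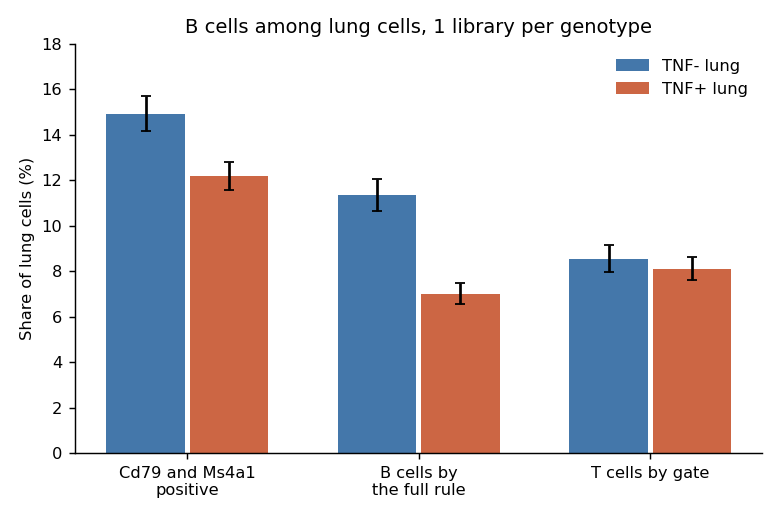
Share of lung cells (%) in the TNF- and TNF+ library, for cells positive for Cd79 and Ms4a1, for B cells by the full rule and for gated T cells. Bars are 1 library each and error bars are exact 95% binomial intervals. The gap between genotypes is wider for the full rule (11.4% and 7.02%) than for the positive markers alone (14.9% and 12.2%).

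The conditions of absence in the rule removed unequal parts of the libraries. Cells with enough Cd79a, Cd79b and Ms4a1 numbered 1246 in the TNF- and 1350 in the TNF+ lung, which is 14.9% (14.2 to 15.7) and 12.2% (11.6 to 12.8) of cells. Csf1r, a macrophage receptor, had a UMI in 4.49% of these TNF- cells (3.41 to 5.80) and in 22.7% of these TNF+ cells (20.5 to 25.0). Cells with at least 2 Cd3 UMIs and no B cell marker showed nearly the same, with Csf1r in 3.19% and 22.2%. Csf1r thus sat in both kinds of lymphocyte at like shares. Cdh5, an endothelial cadherin, was found in 9.79% of the TNF- and 2.44% of the TNF+ marker-positive cells. Mzb1 reached 5 UMIs in 8.83% and 19.1% of them.

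Ms4a1 was the most crowded threshold: 106 TNF- and 97 TNF+ B cells held exactly 1 UMI of it, and 94 and 88 cells were left out with 0. Among B cells, 7 TNF- and 9 TNF+ cells held exactly 3 UMIs of Cd79a and Cd79b, and another 5 and 25 cells would have entered with 2. Exactly 4 Mzb1 UMIs were held by 60 and 64 cells, whereas 37 and 46 were left out with 5. Cr2 lay at 254 CPM in TNF+ cells with 4 Mzb1 UMIs and at 155 CPM in those with 5, whereas in the TNF- library it lay at 113 and 179 CPM. All cells left out for Mzb1 alone (88 and 161) held 967 and 2160 CPM of Jchain, the joining chain of secreted IgA and IgM. The B cells held 7.21 and 184 CPM of it.

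Most genes were at like levels in B cells of both libraries. Of 10801 genes with at least 50 UMIs over both sums, 82.8% lay within 1.5-fold, and the median log2 ratio (TNF+ over TNF-) was -0.05. At least 2-fold higher in TNF+ B cells were 170 genes (1.57%) and at least 2-fold lower were 591 (5.47%). The counts past 2-fold in each gene list below stand against these shares. Only 79 of the higher and 322 of the lower genes had, in the library where they were higher, at least 2 times the UMIs per cell of the T, myeloid or endothelial cells with the fewest, a bound on free RNA. Few cells carried many of these. In 39 of the higher and 177 of the lower genes, 5 cells held at least 50% of the UMIs of the library in which the gene was higher. Leaving out 33 B cells (16 TNF- and 17 TNF+) in which markers of 1 other cell type exceeded 1% of UMIs, an exclusion chosen after the data were seen, left 10342 genes. Of these, 171 (1.65%) were 2-fold higher and 411 (3.97%) 2-fold lower, of which 56 and 243 passed the same bound.

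**Figure D2:**
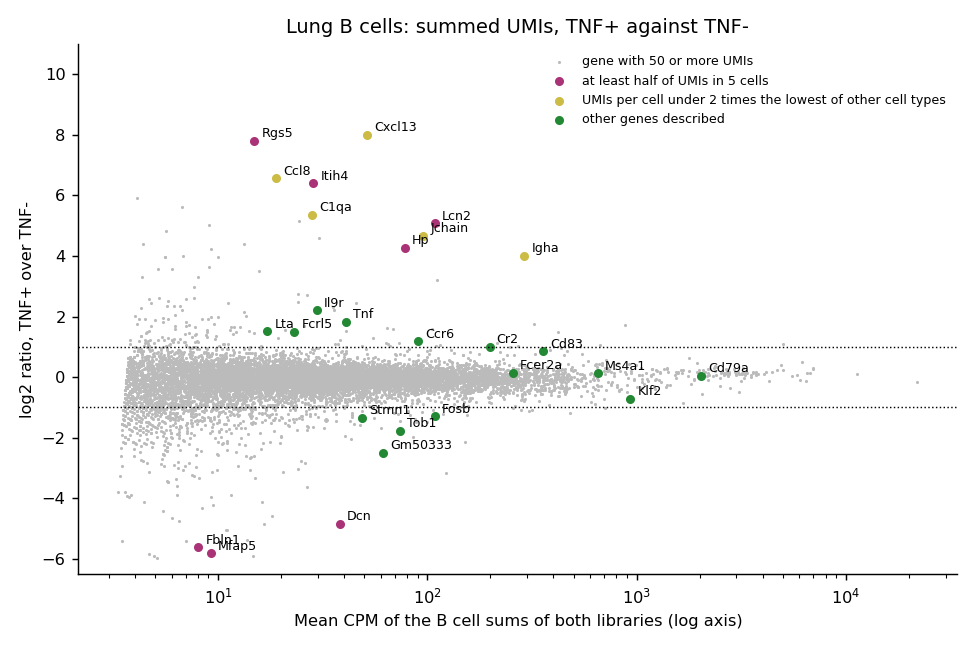
Each gene's log2 ratio of TNF+ over TNF- in lung B cells against its mean CPM (log axis), with dotted lines at 2-fold. Purple genes have at least 50% of their UMIs in 5 cells and reach the extremes (Rgs5 at 7.79, Dcn at -4.83). Yellow genes were under 2 times their UMIs per cell in other cell types (Ccl8, with 0 TNF- UMIs, is drawn at its lower bound), and green genes are others described in the text, such as Cr2 at 1.01 and Il9r at 2.21.

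Cr2, which binds fragments of complement C3, was the member of the receptor and coreceptor list that differed most. It lay at 131 CPM (exact Poisson interval 123 to 140) in TNF- and at 265 CPM (252 to 278) in TNF+ B cells, a log2 ratio of 1.01 (conditional binomial interval 0.90 to 1.13). Per cell this was 1.04 and 2.11 UMIs, against at most 0.0263 in T, myeloid and endothelial cells. After each cell was thinned to 1000 UMIs, a Cr2 UMI remained in 12.2% of TNF- B cells (10.2 to 14.5) and in 19.3% of TNF+ B cells (16.6 to 22.2). Without thinning these shares were 47.8% and 61.3%. In thinned T cells Cr2 was seen in 0 of 713 TNF- cells, where the exact interval reaches up to 0.516%, and in 1 of 893 TNF+ cells. That limit holds for cells with a UMI at this thinned depth, and without thinning 0.842% and 1.44% of T cells had one. The median depths were 9304 and 9169 UMIs for T cells. B cells by the rule held 64.3% of all Cr2 UMIs of the TNF- lung and 51.3% of those of the TNF+ lung, and marker-positive cells held 90.5% and 90.6%. Counts at the 3' end cannot separate the long and short receptor forms made from Cr2.

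The rest of the receptor differed little. Of 8 genes of the receptor and coreceptor list, all measured, only Cr2 passed 2-fold, and the median log2 ratio was 0.08. Cd79a (2004 and 2059 CPM), Cd79b (1256 and 1191 CPM) and Ms4a1, which encodes CD20 (625 and 682 CPM), are given as a description, since the rule used them. The tetraspanin Cd37 had a log2 ratio of 0.32 and Cd53 one of 0.28. All 21 genes of receptor signalling stayed within 2-fold (median 0.07). The largest ratios there belonged to Rasgrp3, an activator of Ras (166 and 329 CPM, log2 ratio 0.99, 0.88 to 1.09), and to Inpp5d, the lipid phosphatase SHIP1 (0.78, 0.71 to 0.85). The kinase Syk went the other way (-0.44), whereas the scaffold Bank1 (0.07) and the phosphatase Ptprc (0.22) moved less.

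Among inhibitory receptors 1 of 9 measured genes passed 2-fold. Fcrl5, a receptor of antibody complexes found on innate-like B cells, lay at 12.1 and 34.2 CPM (log2 ratio 1.49, 1.13 to 1.86), in 43 TNF- and 91 TNF+ cells. B cells by the rule held 45.5% of all Fcrl5 UMIs of the TNF- lung but 16.3% of those of the TNF+ lung. Marker-positive cells held 93% and 95.2%, so the ratio covers only the part that the rule kept. Cd72, which binds semaphorin 4D and restrains receptor signals, lay at 130 and 224 CPM (0.78). Btla lay lower (-0.39), and Fcrla (-0.14) and Fcgr2b (0.39) stayed close.

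The genes of antigen presentation were slightly above 0 as a group and within 2-fold in all 11 members (median log2 ratio 0.22). H2-Eb2 had the largest ratio (0.63), Ciita, the master regulator of these genes, had 0.40 and H2-Ab1 0.38. The invariant chain Cd74 (10858 and 11690 CPM) and H2-Aa (0.29) were also above 0. None of 20 measured B cell transcription factors passed 2-fold (median -0.03). Klf2, which controls the recirculation of naive lymphocytes, lay at 1161 and 709 CPM (log2 ratio -0.71, -0.76 to -0.66). Tcf3 had -0.62, Id3 -0.51, Foxp1 -0.48 and Ebf1 -0.13. In T cells Klf2 had a log2 ratio of -0.93, so it was lower in both kinds of lymphocyte of the TNF+ library.

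Receptors of movement differed in both directions. Ccr6, the receptor of the mucosal chemokine Ccl20, was the only 1 of 14 measured trafficking receptors past 2-fold. It lay at 55.1 CPM (49.9 to 60.7) and 126 CPM (117 to 135), a log2 ratio of 1.19 (1.01 to 1.36), and in T cells the ratio was 1.67. After thinning, Ccr6 was found in 5.49% of TNF- and 12.2% of TNF+ B cells and in 1.26% and 3.58% of T cells (26.7% and 47.0% of B cells without thinning). Ccr7 lay at 172 and 122 CPM, a log2 ratio of -0.50 (-0.63 to -0.37). T cells of the TNF+ library were also lower in it, with -1.17. Itga4, an integrin chain, had -0.28 in B cells.

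The receptors and ligands of the TNF family had a median log2 ratio of 0.51 over 10 measured genes, 2 of them 2-fold higher and none 2-fold lower. Tnf lay at 17.9 CPM (14.99 to 21.2) in TNF- and at 63.5 CPM (57.4 to 70.1) in TNF+ B cells, a log2 ratio of 1.83 (1.54 to 2.12). It was found in 77 TNF- and 221 TNF+ cells, and after thinning in 1.58% (0.889 to 2.60) and 6.56% (4.92 to 8.53), against 8.13% and 28.4% without thinning. Thinned T cells held it in 6.17% and 13.2%, and its log2 ratio there was 1.07 (0.92 to 1.22). TNF+ B cells held 0.506 Tnf UMIs per cell against 0.0877 in the cell type with the fewest. Lta (lymphotoxin alpha), whose gene lies 1157 bp from Tnf, lay at 8.94 and 25.5 CPM (1.51, 1.09 to 1.94). Ltb, which forms with Lta the ligand that organises lymphoid tissue, lay at 573 and 796 CPM (0.47, 0.41 to 0.53). Lta had a UMI in 19.9% of Tnf-positive and in 14.9% of the other TNF+ B cells, whose median depths were 8097 and 7324 UMIs. Tnfrsf13c, the BAFF receptor, had a log2 ratio of 0.54, and Cd27 one of -0.59 on 169 UMIs. B cells held 4.37% and 3.04% of the Tnf UMIs of the 2 lungs.

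The NF-kB pathway, which TNF receptors and the antigen receptor both engage, was split. Of 22 genes, 3 were 2-fold higher and none lower (median 0.11). The survival genes Bcl2a1b (31.8 and 96.8 CPM, log2 ratio 1.61, 1.39 to 1.83) and Bcl2a1d (1.55) are near-identical copies among which reads may be misassigned. Ikbke had 1.21 on 73 UMIs, but lay at 0.0617 UMIs per TNF+ B cell, below the 0.0702 of the other cell type with the fewest. The inhibitor Nfkbia, itself a target of the pathway, lay at 485 and 478 CPM (-0.02, -0.09 to 0.05), and the subunit Rel had -0.06. Tnfaip3, chosen after its values were seen, lay at 72.6 and 40.8 CPM (-0.83). In T cells Bcl2a1b had a log2 ratio of 1.44 and Nfkbia one of 0.50.

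**Figure D3:**
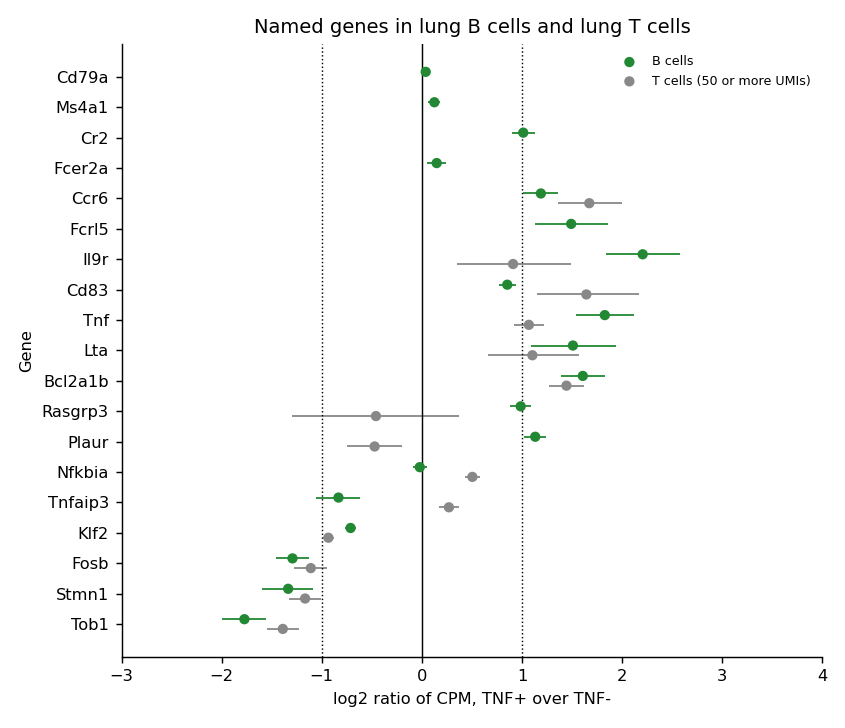
Log2 ratio of CPM (TNF+ over TNF-) of 19 genes in lung B cells (green) and lung T cells (grey), with 95% counting intervals. T cell points are drawn only for genes with at least 50 UMIs in T cells. Cr2, Il9r and Tnf lie at 1.01, 2.21 and 1.83 in B cells. Fosb, Stmn1 and Tob1 lie below -1 in both cell types.

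To set sequence beside these values, the 250 bases before the RefSeq start site (build GRCm38.p6) were searched on both strands for the NF-kB motif of 10 letters. Of 15 genes looked up, 14 had a promoter and 2 a match. The motif was present in 7.25% of all 32851 promoters, in 8.92% of those of genes measured in B cells and in 14.0% of 143 promoters of genes 2-fold higher in TNF+ B cells. These 143 were taken without the bound on free RNA, which only 79 of the 170 higher genes passed, and the difference in shares was not tested. The 3 windows shown are those of a gene that was higher with a match, a gene that did not move with a match and the higher gene Tnf with none in this window. Each runs 5′ to 3′ on the gene's strand and capitals mark the match, which in Ccr6 comprises 3 overlapping matches in the second of its 2 promoters.
Ccr6 (chr17:8242276-8242525, plus strand): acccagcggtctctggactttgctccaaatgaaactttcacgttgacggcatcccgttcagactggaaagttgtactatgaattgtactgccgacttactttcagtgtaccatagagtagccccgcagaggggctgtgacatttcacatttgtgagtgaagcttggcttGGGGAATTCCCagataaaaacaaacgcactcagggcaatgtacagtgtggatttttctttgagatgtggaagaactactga
Nfkbia (chr12:55492648-55492897, minus strand): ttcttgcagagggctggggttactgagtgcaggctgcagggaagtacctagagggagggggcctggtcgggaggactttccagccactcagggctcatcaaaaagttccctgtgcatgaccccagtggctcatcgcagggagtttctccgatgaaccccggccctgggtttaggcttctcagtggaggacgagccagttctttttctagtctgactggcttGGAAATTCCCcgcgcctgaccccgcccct
Tnf (chr17:35202008-35202257, minus strand): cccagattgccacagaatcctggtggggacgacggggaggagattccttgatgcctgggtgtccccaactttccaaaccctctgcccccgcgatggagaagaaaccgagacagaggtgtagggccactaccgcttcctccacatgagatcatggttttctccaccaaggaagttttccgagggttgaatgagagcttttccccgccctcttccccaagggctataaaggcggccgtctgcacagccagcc
A match describes letters and not binding, and the absence of one says only that these letters are not in the window.

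Signs of activation were uneven. Of 16 measured activation genes 15 lay above 0 (median log2 ratio 0.45), but only Ebi3 passed 2-fold (1.46, on 95 UMIs). Cd83, which stabilises surface MHC class II, lay at 256 and 462 CPM (0.85, 0.77 to 0.94) and Cd80 at 4.54 and 8.54 CPM. Cd69, an early activation marker, was the gene below 0 (-0.43). Immediate-early genes, which respond to stimulation and to tissue digestion within minutes, leaned the other way, with a median of -0.42 and 6 of 23 above 0. Past 2-fold, 2 of the 23 were lower and none higher, where 5.47% of all genes were lower and 1.57% higher. Klf4 lay at 80.2 and 31.6 CPM (-1.35) and Fosb at 154 and 63.0 CPM (-1.29, -1.46 to -1.13), while Myc had 0.95 on 213 UMIs. Jund had -0.39 and Junb -0.05. The T cell ratios of Fosb (-1.11) and Klf4 (-0.78) were also below 0. The list as a whole was not lower in T cells, where its 23 genes had a median of -0.04.

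Interferon-stimulated genes stayed mostly within 2-fold. None of 20 was 2-fold higher and 2 were 2-fold lower (median -0.10), Ifit2 (-1.34) and Rsad2 (-1.23), which rested on 89 and 69 UMIs. Ifit2 lay at 0.0707 UMIs per TNF- B cell, below the 0.101 of the other cell type with the fewest. Irf1 had -0.82, Ifi27l2a -0.49 and Ly6e 0.12. Irf1 also missed the bound on free RNA, with 1.72 UMIs per TNF- B cell against 1.54. Of 18 cell cycle genes only 9 were measured, and 3 of these were 2-fold lower and none higher, against 5.47% and 1.57% of all genes. The 3 were Stmn1 (69.5 and 27.5 CPM, -1.34), Top2a (-1.23) and Rrm2 (-1.67). Hmgb2 (-0.04) and Tubb5 (0.22) were close to 0, and Mki67, a marker of cycling cells chosen after its values were seen, had a UMI in 15 cells of each library. Stmn1 had -1.17 in T cells, which held more of it (1.31 UMIs per TNF- cell) than B cells did (0.550). None of 12 heat shock genes passed 2-fold (median -0.07).

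**Figure D4:**
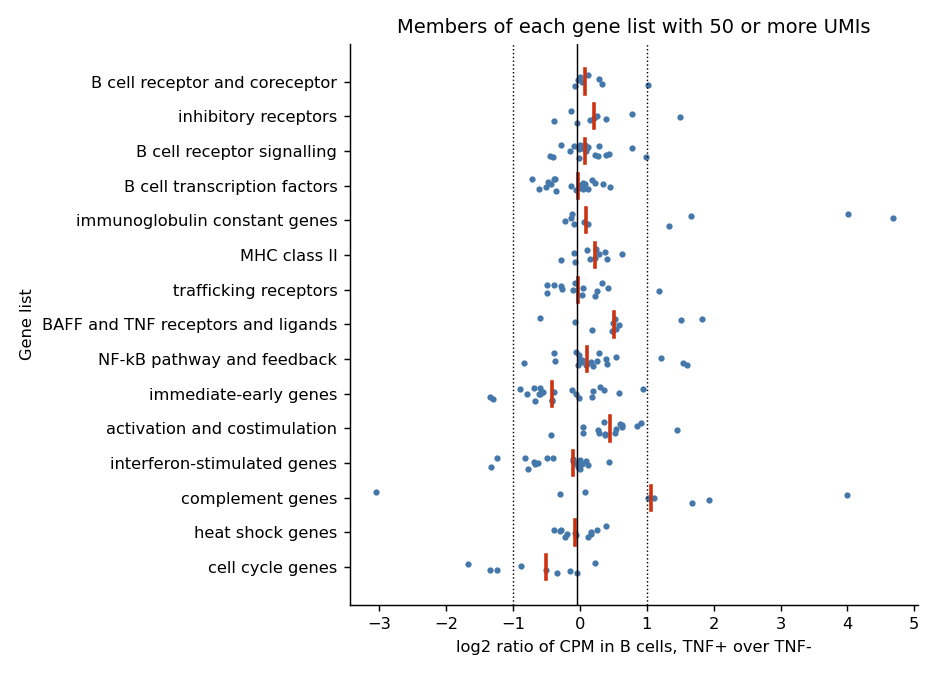
Log2 ratio of CPM in lung B cells (TNF+ over TNF-) for each member with at least 50 UMIs of 15 gene lists, with the list median in red, the median of all genes as a black line and 2-fold as dotted lines. The medians run from -0.51 for cell cycle genes to 1.06 for complement genes.

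Immunoglobulin genes differed in how far B cells exceeded other cells, all of which held some of this RNA. Ighm (1937 and 1824 CPM, log2 ratio -0.09), Igkc (6688 and 6150 CPM, -0.12) and Ighd (815 and 696 CPM) were at like levels. TNF+ B cells held 49.1 Igkc and 14.5 Ighm UMIs per cell, against 8.71 and 1.43 in TNF+ T cells. TNF- B cells held 52.9 and 15.3, against 0.686 and 1.35 in TNF- T cells. The like levels of Igkc thus include RNA that T cells also held, and more of it in the TNF+ library. Igha, the IgA heavy chain, lay at 34.04 and 546 CPM (4.00, 3.82 to 4.19) and had a UMI in 760 of 778 TNF+ B cells. Each TNF+ B cell held 4.36 Igha UMIs, against 4.72 in the other cell type with the fewest and 4.82 in T cells. Jchain (log2 ratio 4.67) was likewise at 1.47 UMIs per TNF+ B cell and at 1.63 per T cell. These 2 genes were therefore at or below the level of cells that do not make antibody. Ighg2b (1.65) lay at 0.154 UMIs per TNF+ B cell and 0.0588 per T cell, and 4 cells held all of its 46 TNF- UMIs. At least 2 IgG heavy chain UMIs were held by 8 TNF- and 30 TNF+ B cells, of which 4 and 7 had no Ighd UMI.

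The same pattern held for macrophage RNA. Of 15 macrophage and monocyte markers, 12 were 2-fold higher in TNF+ B cells, and their summed level went from 8.02 to 22.6 UMIs per cell. Only 2 of the 15 reached 2 times the level of the other cell type with the fewest UMIs. C1qa lay at 0.437 UMIs per TNF+ B cell and 0.521 per T cell, and Cxcl13 at 0.816 and 1.07. Complement genes other than Cr2 shared this limit: C3 (log2 ratio 1.11, chosen after its values were seen), Cfb (3.99) and Cfp (1.92) were within 2-fold of the lowest other cell type in TNF+ cells. In TNF- B cells 83.6% of the C3 UMIs lay in 5 cells, and without the 33 cells its ratio was 3.12. The regulators Cd55 (-0.30) and Cr1l (0.08) were close to 0. The part of free RNA in these values was not tested.

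**Figure D5:**
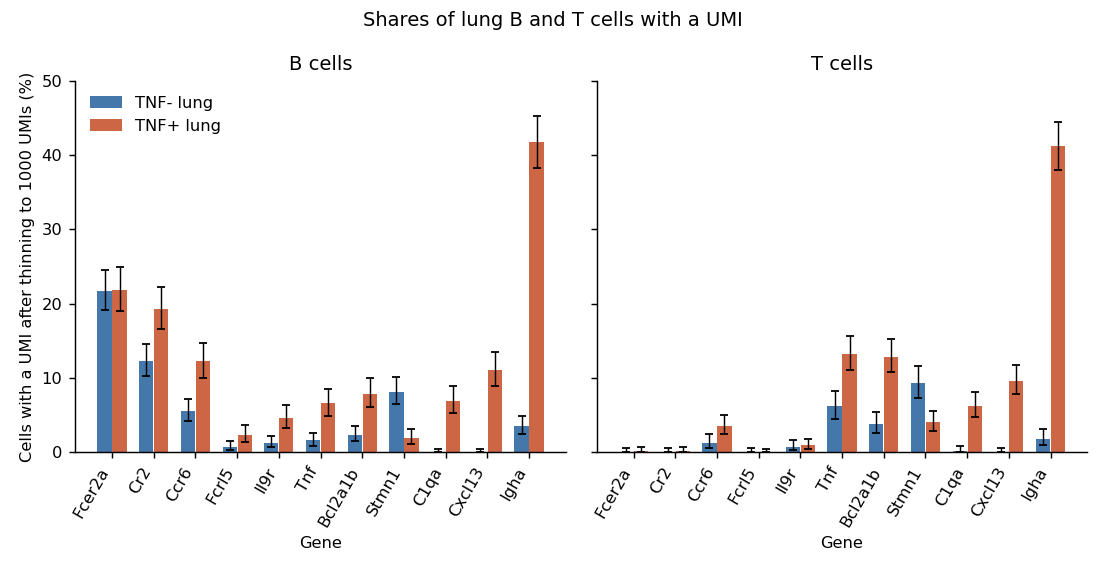
Share (%) of lung B cells and T cells with a UMI of each gene after thinning to 1000 UMIs, with exact 95% binomial intervals, for 1 library per genotype. Cr2 and Fcer2a are near 0 in T cells, whereas C1qa, Cxcl13 and Igha reach like shares in B and T cells of the TNF+ library (Igha at 41.8% and 41.2%).

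The genes with the largest ratios were mostly carried by few cells. Among the 10 highest that passed the bound on free RNA, 8 had at least 50% of their TNF+ UMIs in 5 cells. Rgs5, a pericyte gene, had all 184 UMIs in 2 cells, Lcn2 had 1312 UMIs with 85.0% in 5 cells, and Itih4 (82.5%), Hp (77.5%), Chil1 (87.6%), Lrg1 (82.8%), Ctnna3 (93.3%) and Il33 (81.8%) were alike. All of the 10 lowest were of this kind (Actc1, Clec3b, Dcn, Fbln1, Igfbp6, Lama2, Lum, Mfap5, Serpinf1 and Tshz2), mostly fibroblast genes. Dcn had 551 TNF- UMIs, 97.1% of them in 5 cells, and its log2 ratio of -4.83 became 0.09 without the 33 cells. The B cells with over 1% epithelial markers numbered 5 and 8 and those with fibroblast and mural markers 6 and 2.

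Il9r and Tbc1d9 were the exceptions. Il9r, the interleukin-9 receptor, lay at 10.54 CPM (8.35 to 13.1) and 48.7 CPM (43.3 to 54.5), a log2 ratio of 2.21 (1.84 to 2.58). It was found in 45 TNF- and 141 TNF+ B cells, and after thinning in 1.27% and 4.63% of B cells against 0.701% and 0.896% of T cells (4.75% and 18.1% of B cells without thinning). The T cell log2 ratio was 0.91 (0.35 to 1.49). Tbc1d9, a putative regulator of Rab GTPases, lay at 3.47 and 18.9 CPM (2.44, 1.82 to 3.11) in 21 and 57 cells. Without the 33 cells Il9r had 2.17 and Tbc1d9 2.42. Further genes, chosen after their values were seen, also passed the bound on free RNA: Plaur, the urokinase receptor (392 and 455 cells, log2 ratio 1.13, and -0.47 in T cells), Ifi30, a lysosomal thiol reductase (516 and 618 cells, 1.04), Pag1 (714 and 661 cells, 0.98), Pxdc1 (355 and 429 cells, 1.02), Chst10 (76 and 145 cells, 1.68, and 0.17 in T cells) and Sema7a (26 and 64 cells, 1.75). The lincRNA Gm16337 (1.54) lies within Pag1 on the other strand, and Snrnp25 (1.23) lies 5135 bp from Il9r.

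On the lower side without the 33 cells, the 15 genes with the smallest ratios included many predicted genes. Gm50333 had 772 TNF- and 112 TNF+ UMIs (log2 ratio -2.53), and Zg16 (-2.66), Zfp69 (-2.65) and Armh2 (-2.65) were similar. Of the 15, 12 were also at least 2-fold lower in T cells, with -2.88 for Gm50333 and -2.89 for Zg16. Over all B cells, Tob1, an antiproliferative factor (115 and 33.5 CPM, -1.77), and Slc7a5, an amino acid transporter (91.4 and 28.8 CPM, -1.66), were lower in many cells and lower in T cells as well (-1.39 and -1.31). These genes were chosen after their values were seen.

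Clustering of the B cells without immunoglobulin, mitochondrial and ribosomal protein genes gave 9 clusters. In 4 of them over 90% of the cells came from 1 library, clusters 0 and 2 from TNF- (255 of 267 and 466 of 484 cells) and clusters 5 and 6 from TNF+ (299 of 302 and 329 of 337). Genes found in T cells too (Ccl8, C1qb, Cxcl13) led cluster 5. In these 4 clusters library and kind of B cell cannot be told apart. The other 5 held both libraries, and since they were defined by these genes the values describe them without a test. Cluster 3 (34 TNF- and 41 TNF+ cells) was led by genes such as Zbtb32, Tbc1d9, Cd80, Sox5 and Fcrl5. In it 6 of 8 markers of B-1 cells, the self-renewing innate-like B cells, were 2-fold above the other clusters, but only Zbtb32 was among the leading 10, so the cluster was not named. Bhlhe41, a B-1 cell regulator, lay there at 69.2 and 76.6 CPM against 9.88 and 8.52 CPM elsewhere, and Fcer2a at 98.9 and 48.1 against 251.2 and 287 CPM. Cd5 had 0 and 5 UMIs in it.

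Cluster 1 (105 and 43 cells) was led by Agbl1, Cplx2 and Smim24. Vpreb3, a surrogate light chain gene of immature and transitional B cells, lay there at 461 and 705 CPM against 138 and 194 CPM, and Cr2 at 101 and 55.6 against 135 and 277 CPM. Cluster 8 (13 and 21 cells) was led by Ifit1, Ifit3 and other interferon-stimulated genes, with Ifit3 at 737 and 312 CPM against 5.00 and 2.48 CPM. Cluster 7 (29 and 4 cells) was led by the platelet genes Gp9, Ppbp and Pf4, and cluster 4 (34 and 11 cells) by Tagln, Dcn and Acta2 of mural cells and fibroblasts. The last held 16 of the 33 cells with markers of other types. Outside cluster 3, Cr2 had a log2 ratio of 1.04 (0.92 to 1.16), Il9r one of 2.56 (2.14 to 3.01) and Fcrl5 one of 1.97 (1.40 to 2.58), all as large as or larger than over all B cells. Tbc1d9 had 1.99 outside it, and 75 of its 117 TNF+ UMIs lay inside. Inside cluster 3, Cr2 had 0.57 (0.05 to 1.09), Fcrl5 0.71 (0.23 to 1.19) and Tbc1d9 2.35 (1.49 to 3.33). Il9r had 0.49 there (-0.29 to 1.29), Ccr6 0.03 (-0.53 to 0.60) and Plaur -0.79 (-1.42 to -0.17), the last opposite to its ratio over all B cells. Without cluster 6, which was nearly all TNF+, Cr2 fell to 0.59 (0.44 to 0.73), Ccr6 to 0.88 and Plaur to 0.90, all under 2-fold. Il9r (2.31), Tnf (1.83) and Fcrl5 (1.71) stayed past it. Cr2 had 1.09 without cluster 5 and 1.21 without cluster 2. It lay at 125 and 153 CPM in the TNF- cells of clusters 0 and 2. In the TNF+ cells of clusters 5 and 6 it lay at 237 and 351 CPM. Inside the mixed clusters 1 and 8, Cr2 had -0.87 (-1.67 to -0.13) and 1.19 (0.21 to 2.29). Clusters 4 and 7 held few Cr2 UMIs (37 and 17, 23 and 4), with 0.03 (-0.89 to 0.90) and 0.07 (-1.92 to 1.62). Among the mixed clusters the Cr2 difference thus did not have the same direction throughout.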

How the data were processed

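Lung cells were captured with 10x Genomics 3′ chemistry, 1 library per genotype. The authors deposited raw UMI counts for each gene in each cell, not normalized. Cell Ranger (version 7.0.1) had made them at default settings, which include intronic reads, on the mm10 reference. The study's methods give 5000 to 8000 captured cells per condition. The lung matrices hold 8555 (TNF-) and 11243 (TNF+) barcodes, of which 6998 and 9174 lie within the study's limits of 200 to 5000 genes and 20% mitochondrial UMIs. No file assigns cells to types.

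From these counts, cells with at least 500 UMIs and at most 20% mitochondrial UMIs were kept and B cells were chosen by the rule given above. The members, the gene lists and the rule were chosen with earlier results of these data known. No doublet caller was run: the rule's conditions of absence remove some doublets, and B cells with over 1% of UMIs from another cell type's markers were left out as an alternative. The summed UMIs of each gene over the B cells were divided by the sum of all genes to give CPM. Exact Poisson intervals were computed for CPM, Clopper-Pearson intervals for shares and conditional binomial intervals for log2 ratios, all at 95%. A count of 0 was replaced by a floor of 3 UMIs per library in ratios. With 1 library per genotype no test of genotype was possible, and 2-fold is a rule of size. The bound on free RNA was the fewest UMIs per cell among gated T, myeloid and endothelial cells. For shares, cells were thinned at random to 1000 UMIs. The alternatives, whose effects are given in the closing section, changed the limits on cells, the marker rule, the scaling, the weight of cells, the UMI minimum and the thinning, and left out cells with RNA of other types. Clusters used Scanpy (version 1.11.5) with 1500 variable genes, 15 components, 20 neighbours and Leiden resolution 0.8. The scripts were tested on simulated data.

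The genes named were those of the rule and the given markers, in each of 15 pathway lists the 3 with the largest log2 ratio in size among genes with at least 50 UMIs and the 2 with the highest CPM, and the 10 highest and 10 lowest log2 ratios among genes with at least 100 UMIs and 2 times the bound on free RNA. Some genes that this rule takes are not reported here. Others are said to be chosen after their values were seen or serve as checks of identity, free RNA or clusters. Gene positions came from GENCODE vM21 and promoters from RefSeq, both of build GRCm38. The synovial libraries held 42 and 11 cells by the same rule and were not used.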

Additional observations from a re-analysis of the deposited data

Results flagged for a closer look

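1 gene among those named was at least 2-fold different in opposite directions in B cells and T cells of the same libraries. Ctnna3, an alpha catenin, had a log2 ratio of 3.30 in B cells, from 11 and 90 UMIs, and of -4.48 in T cells, from 109 and 6 UMIs. The difference between the cell types was not tested. In TNF+ B cells 93.3% of its UMIs lay in 5 cells, and without the 33 B cells with markers of other types its ratio was 2.75.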

How the results depend on the processing

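The difference in the share of B cells, -4.33 percentage points, lay between -4.95 and -3.77 under 7 of the 8 alternatives: the study's limits on cells, at least 1000 UMIs, at most 10% mitochondrial UMIs, stricter markers, no condition on Cd3, Csf1r and Cdh5, no condition on Mzb1, and the 33 cells left out. A looser rule in cells thinned to 1000 UMIs, at least 1 UMI of Cd79a, Cd79b or Ms4a1 and none of Cd3, Csf1r and Cdh5, gave -2.33 (17.3% and 14.98%). With the conditions of absence and on Mzb1 dropped together, the shares were 14.9% and 12.2%, a narrower gap than under the full rule. The numbers of genes past 2-fold stayed within 1.5 times of 170 and 591 under every other setting except the UMI minimum: at least 20 UMIs gave 360 higher and 1114 lower, and at least 200 UMIs gave 51 higher and 148 lower. Of 153 genes followed, 78 were past 2-fold. Between 71 (cells without a UMI of 8 genes of other types) and 78 (both other scalings) of these stayed past it in the same direction. The sizes moved more. In cells without a UMI of the 8 genes, 67 of the 153 ratios left their counting interval without turning sign. Under the study's limits 25 did so, without the 33 cells 24, and under the other settings between 0 and 22. Median-of-ratios scaling sets the median log2 ratio of all genes, -0.05 here, to 0. The sign turned for Dcn without the 33 cells (0.09), for Lum under the study's limits (1.24) and without cells with genes of other types (0.0227), and for Rsad2 under the last setting (0.11), which kept 666 and 184 cells. No paired analysis was possible because each genotype had 1 library of pooled mice. Genes with under 50 UMIs were not compared, and a difference below the counting interval was not detectable at this depth.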

Other observations

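Most B cells could not be assigned to 1 light chain. Among cells with at least 5 light chain UMIs, over 80% lambda (Iglc1, Iglc2 and Iglc3) was found in 4.57% of 941 cells of the TNF- library (3.33 to 6.11) and in 3.86% of 778 cells of the TNF+ library (2.62 to 5.46). Under 20% lambda was found in 42.1% and 44.7%, and the other 53.3% and 51.4% lay between. Iglc2 and Iglc3 are near-identical, so reads may be misassigned between them. In the lambda cells the median Igkc count was 1 UMI in the TNF- and 8 UMIs in the TNF+ library, and T cells held 0.686 and 8.71 Igkc UMIs on average.

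Of 5 measured markers of age-associated B cells 3 were 2-fold higher and none 2-fold lower, against 1.57% and 5.47% of all measured genes. Itgax had a log2 ratio of 1.93 on 75 UMIs and Fcrl5 one of 1.49, while Tbx21 had -0.38 on 72 UMIs and Zeb2 -0.61. Itgax lay at 0.0733 UMIs per TNF+ B cell, below the 0.149 of the other cell type with the fewest. Fcrl5 passed the bound on free RNA, and the remaining higher gene is not reported here. Of the follicular B cell markers all 6 were within 2-fold, with a median of -0.26.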
